A study of Ovis aries with 6 samples.

Results

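The genes described here belong to the integrated stress response and to the serine and one-carbon synthesis that its main transcription factor controls. They were chosen by gene symbol: ATF4, ATF5, DDIT3, DDIT4, TRIB3, ASNS, PSAT1, PHGDH, SHMT2 and MTHFD2. Of these 10 symbols, 9 had a row of their own among the 23144 genes of the count table. MTHFD2 had none. The row LOC100137069, whose number is that of MTHFD2 in RefSeq, is given below but was not counted as a member. The libraries were made from longissimus dorsi muscle of 1-year-old females of both breeds, 3 sheep of the Qianhua Mutton Merino (QHMM) breed and 3 of the Small Tail Han (STH) breed, kept under the same conditions, with 1 library per animal. QHMM is a newly bred mutton variety and STH a traditional local one, and the question behind the comparison is which muscle transcripts differ between them. No animal was treated. Muscle was snap-frozen after slaughter, live weight had been taken after a fast, and the sources used here do not say whether the muscle donors were fasted.

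The integrated stress response begins when 1 of 4 kinases phosphorylates the translation factor eIF2, which slows protein synthesis in general but lets the ribosome translate ATF4. ATF4 is therefore controlled to a large extent at the step of translation, and the abundance of its mRNA is not a measure of its protein. As a protein, ATF4 switches on genes for amino acid supply (ASNS, PSAT1, PHGDH, SHMT2, MTHFD2) and further regulators (ATF5, DDIT3, TRIB3, DDIT4). In muscle, the response is known above all from amino acid shortage and from damage to mitochondria.

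Each library held 10982191 to 14334544 reads counted on genes. The defining genes of the labelled tissue were abundant in every library, with at least 33122 RPKM of ACTA1, 19801 of CKM and 3301 of DES. Means and SDs below are of TMM-normalized counts over 3 libraries. A gene was called different when edgeR's quasi-likelihood test gave an FDR below 0.05, adjusted over all 12506 genes tested, and a fold change above 1.5 in either direction. Log2 fold changes are STH vs. QHMM, so positive values are higher in STH. Nothing in the labels ties animals of the same number together.

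The members differed in level by more than 3 orders of magnitude. The tissue was sequenced whole, so in each value fewer cells of a type and less RNA per cell cannot be told apart. On the RPKM scale, which corrects for gene length, the medians over the 6 libraries fell in the order ATF4 (842), DDIT4 (128), SHMT2 (25.7), DDIT3 (10.3), ATF5 (6.11), PHGDH (1.78), ASNS (0.735), PSAT1 (0.669) and TRIB3 (0.258). ATF4 stood at rank 93 among 23119 genes by median RPKM, and its lowest library (669) lay above the highest library of DDIT4 (217). By contrast, ASNS and PSAT1, the enzymes of asparagine synthesis and of the second step of serine synthesis, stood at ranks 11537 and 11715. Between neighbours in this order, the ranges over the 6 libraries did not overlap for ATF4 and DDIT4, for DDIT3 and ATF5, or for ATF5 and PHGDH. The ranges of the other neighbours overlapped. DDIT4 had the widest range of the members with reads in every library, from 11.1 to 217 RPKM, a ratio of 19.5, whereas ATF4 varied by a ratio of 1.86.

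**Figure D1:**
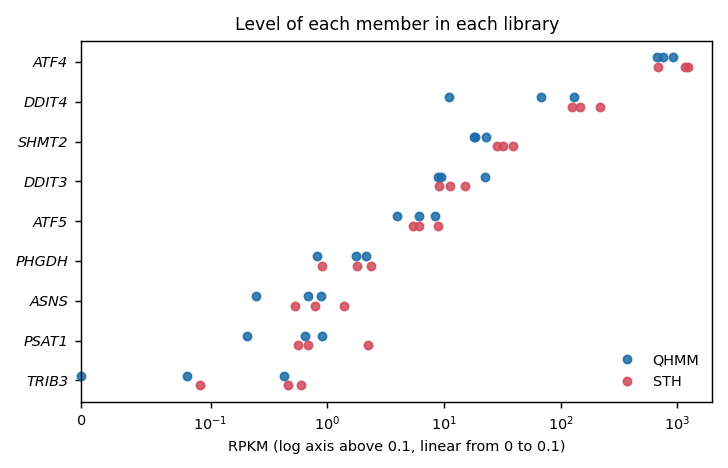
RPKM of the 9 members (rows) in each library, with QHMM in blue and STH in red; the horizontal axis is logarithmic above 0.1 and linear below. ATF4 is highest, with 669 to 1244 RPKM, the enzymes PHGDH, ASNS and PSAT1 lie between 0.206 and 2.36, and DDIT4 spreads from 11.1 to 217.

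Of the 9 members, 8 passed the filter on low counts and 0 were called between the breeds by edgeR, where 3.45% of all tested genes were called. DESeq2 and the other settings that were tried called 0 as well. Before adjustment, edgeR gave 1 of the 8 a p below 0.05, against 19.2% of all tested genes. That gene, SHMT2, was also the only one of the 8 whose breeds did not overlap, which held for 24.7% of all tested genes. The median log2 fold change of the 8 was 0.40, beside 0.02 over all tested genes, with 6 values above 0 and 2 below. With only 8 members tested, these counts of 0, 1 and 1 do not set the members apart from the whole table. A lack of calls does not show equality, and the 95% intervals in the plot of fold changes reach past a 1.5-fold change for each of the 8.

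**Figure D2:**
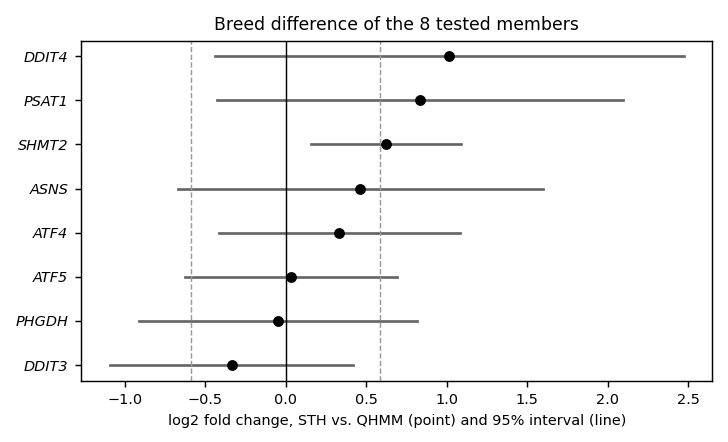
Log2 fold change in STH vs. QHMM (points) with 95% intervals from edgeR (lines) for the 8 tested members; dashed lines mark a fold change of 1.5 in either direction. Only the interval of SHMT2, from 0.16 to 1.09, lies wholly on one side of 0, and that of DDIT4 is the widest, from -0.44 to 2.47.

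ATF4 is the transcription factor at the head of the response. Its normalized counts were 10288, 13823 and 14014 for QHMM replicates 1, 2 and 3, and 8848, 16462 and 22688 for STH replicates 1, 2 and 3. The breeds overlapped. Both the lowest and the highest of the 6 values were found in STH, whereas on RPKM the lowest was QHMM replicate 1 (669, beside 681 in STH replicate 1), and the SD in STH (6931) was larger than that in QHMM (2098). Its log2 fold change was 0.33 (SE 0.34, 95% interval -0.42 to 1.08, FDR = 0.644). The sign rested on STH replicate 3, since the value was -0.003 without that library. The 3 tested genes with the pattern nearest to that of ATF4, by the root mean square difference of log2 CPM after each gene was centred on its own mean over the 6 libraries, were ITFG3 (0.12), CBX7 (0.13) and TMEM180 (0.14), where ATF4 itself deviated from its mean by 0.44.

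ATF5, a related leucine-zipper factor whose translation is also favoured when eIF2 is phosphorylated, had overlapping values in the breeds. It had 119, 66.7 and 85.3 normalized counts in QHMM and 106, 70.5 and 102 in STH, with 90.2 ± 26.4 (mean ± SD, n = 3) against 92.7 ± 19.3 (n = 3). The log2 fold change was 0.04 (SE 0.30), with an interval of -0.62 to 0.69, which is 0.650-fold to 1.62-fold, and the FDR was 0.965. DDIT3, which encodes the factor CHOP and is linked with cell death after prolonged stress, had 256, 128 and 99.5 normalized counts in QHMM and 146, 116 and 121 in STH. QHMM replicate 1 stood above the other 5 libraries. The log2 fold change of -0.34 (SE 0.34, FDR = 0.644) became 0.15 when this library was left out. TRIB3, a pseudokinase that restrains ATF4 and DDIT3, was close to the limit of detection. It had 6, 0 and 1 raw reads in QHMM and 6, 1 and 8 in STH, and did not pass the filter on low counts. A count of 0 in QHMM replicate 2 allows up to 3 reads, or 0.231 CPM, by counting error alone.

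DDIT4, also named REDD1, restrains the growth kinase mTORC1 and is induced by glucocorticoids, hypoxia and energy stress as well as by ATF4. It had the largest log2 fold change of the 8 tested members and the largest error, 1.02 (SE 0.66, 95% interval -0.44 to 2.47, FDR = 0.442). QHMM replicate 1 held 1473, replicate 2 held 3400.1 and replicate 3 held 239 normalized counts, and the STH animals held 4007, 2491 and 3840.2. The QHMM animals differed from each other by a ratio of 14.3, and the STH animals by 1.61. QHMM replicate 2 lay within the STH range, whereas QHMM replicate 3 was lowest of all. Without QHMM replicate 3 the log2 fold change dropped to 0.50, and without QHMM replicate 2 it was 2.01. Neither value was called (FDR = 0.578 and 0.165).

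The genes with the pattern nearest to DDIT4 were looked up by the same measure after its values had been seen. They were DUSP1 (0.41), KLF10 (0.45) and LOC101118186 (0.52), where DDIT4 deviated from its own mean by 1.42. DUSP1 encodes a phosphatase that switches off MAP kinases and KLF10 a transcription factor induced early by growth factors. The count table gives KLF2 as the best match of LOC101118186. DUSP1 had 8117, 9060.4 and 847 normalized counts in QHMM and 9178, 8026 and 10465 in STH. KLF10 had 1806, 1627 and 176 in QHMM and 2077, 1837 and 2252 in STH. Because these genes were chosen for a pattern like that of DDIT4, a shared lowest library is no independent finding. In all 3 genes, as in DDIT4, QHMM replicate 3 held the lowest value. The highest QHMM library exceeded it by a ratio of 10.7 in DUSP1 and 10.3 in KLF10, and the STH libraries of KLF10 all lay above those of QHMM. None of the 3 was called, with FDR values of 0.635, 0.529 and 0.570.

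**Figure D3:**
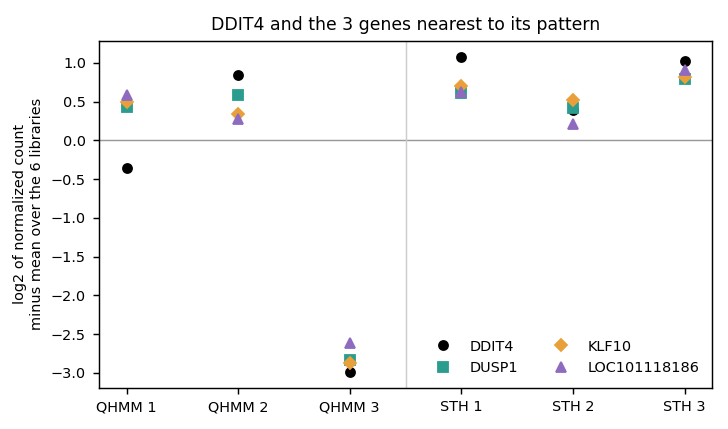
Log2 of the normalized count, centred on the mean of each gene over the 6 libraries, for DDIT4 (black circles) and its 3 nearest genes in each library. The 3 genes were chosen for their likeness to DDIT4. QHMM replicate 3 is the lowest library for all 4 genes, and DDIT4 in QHMM replicate 1, at 1473 normalized counts, lies below its 3 companions.

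The serine pathway makes serine from the glycolytic intermediate 3-phosphoglycerate in 3 steps, of which PHGDH catalyses the first and PSAT1 the second. Both genes were scarce in these muscles. PHGDH had 58, 20 and 41 raw reads in QHMM and 58, 37 and 23 in STH, and 38.9 ± 14.4 against 37.7 ± 11.2 normalized counts (mean ± SD, n = 3 each). Its log2 fold change of -0.05 (SE 0.39, interval -0.91 to 0.82) turned to 0.06 on log2(RPKM + 1) after a filter on low values, where the median of all genes itself was at 0.12. PSAT1 had 29, 6 and 18 raw reads in QHMM and 66, 17 and 17 in STH. STH replicate 1 exceeded the other libraries by more than the range among them, and the other STH animals lay within the QHMM range. The log2 fold change of PSAT1 was 0.83 (SE 0.57, FDR = 0.471), and 0.09 without STH replicate 1. ASNS, the asparagine synthetase and a classic ATF4 target, had 24, 6 and 16 raw reads in QHMM and 34, 11 and 20 in STH. Its breeds overlapped, and the difference on the log2 scale was 0.46 (SE 0.51, FDR = 0.673). The 95% intervals of ASNS (0.629-fold to 3.02-fold) and PSAT1 (0.744-fold to 4.27-fold) include a difference of 2-fold, and that of PHGDH (0.532-fold to 1.76-fold) does not reach it.

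SHMT2 is the mitochondrial enzyme that splits serine into glycine and a one-carbon unit. Its normalized counts were 567, 534 and 455 for the QHMM animals and 668, 882 and 847 for the STH animals. The lowest STH library was above the highest QHMM library. The means were 518 ± 57.6 (mean ± SD, n = 3) and 799 ± 115 (n = 3), and the log2 fold change of 0.62 (SE 0.21, 95% interval 0.16 to 1.09) corresponds to a 1.54-fold higher count in STH. After adjustment over all genes the FDR was 0.136, so SHMT2 was not called. The log2 fold change lay between 0.53 and 0.72 with any 1 library left out and between 0.60 and 0.73 in the settings with all 6, and the FDR ranged from 0.0986 to 0.362. The row LOC100137069, for MTHFD2, which acts next to SHMT2 in mitochondria, held 7, 0 and 3 raw reads in QHMM and 4, 5 and 1 in STH. It did not pass the filter.

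**Figure D4:**
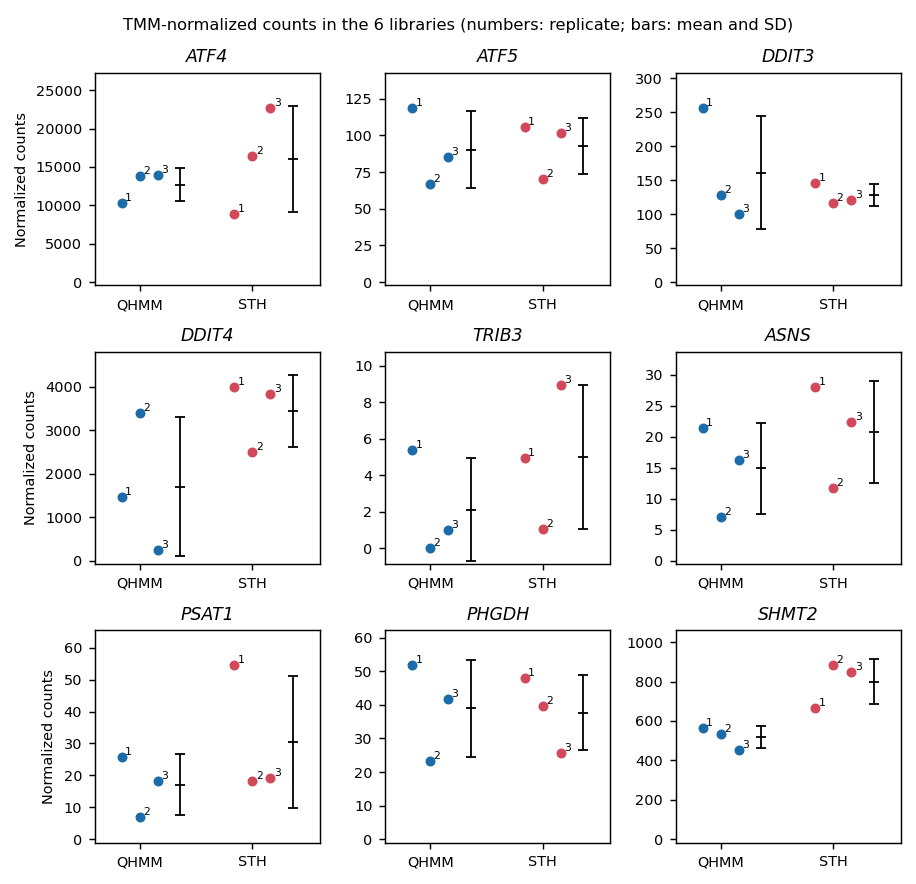
TMM-normalized counts of the 9 members in the 6 libraries, each panel with its own linear axis; points carry replicate numbers, and bars are the mean and SD of 3 libraries. The breeds overlap in each gene except SHMT2, where STH lies at 668 to 882 and QHMM at 455 to 567.

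Across the members, the same libraries often held the extremes of the normalized counts. The share of all genes with the same libraries at the extremes was not computed, so these counts cannot be read as a trait of the members. In QHMM, replicate 1 had the highest normalized count in 7 of 9 members and replicate 2 the lowest in 5 of 9. In STH, replicate 1 was highest in 6 of 9 and replicate 2 lowest in 6 of 9. The latter depends on the scale. On RPKM, the lowest STH library was replicate 3 for DDIT3 (8.99, beside 11.2 in replicate 2) and PSAT1 (0.559, beside 0.689). ATF4 went the other way in both breeds, with replicate 1 lowest. The replicates of a breed have no order, and nothing in the labels ties those of the same number together.

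Companion genes of the response were read from 10 pathway lists in the same fit. In these lists, 7 genes were called, 6 higher in STH and 1 lower, where 1.62% and 1.83% of all tested genes were called in those directions. The share over the 10 lists together was not computed. The lists were drawn up with earlier results of these data known, so their number of calls is no independent finding. Upstream of ATF4, the 4 eIF2 kinases (EIF2AK1 to EIF2AK4) were all tested and 0 were called, with a median log2 fold change of 0.29. EIF2AK1, the kinase that responds to heme shortage and mitochondrial stress, had 0.38 (SE 0.22, FDR = 0.381), and EIF2AK2 had 0.71 (SE 0.50, FDR = 0.484). Of the 10 subunits of eIF2 and eIF2B and regulators of the eIF2 phosphatase, 0 were called. Before adjustment, edgeR gave 0 of the 10 a p below 0.05, against 19.2% of all tested genes. All 10 log2 fold changes were above 0, from 0.04 to 0.48 with a median of 0.37, beside 0.02 over all tested genes. The share of all tested genes above 0 was not computed. EIF2B1 and EIF2S3 had the highest, 0.48 and 0.43. PPP1R15A, which ends the response by directing a phosphatase to eIF2, had 5525, 3049 and 864 normalized counts in QHMM and 2981, 2478 and 4230 in STH, so that QHMM replicate 3 was again lowest; this gene was picked out after the data had been viewed.

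Among 10 partner transcription factors 0 were called, and their median log2 fold change was 0.04. CEBPB, a dimer partner of ATF4, had 566, 854 and 207 normalized counts in QHMM and 1245, 1615 and 1743 in STH. Its breeds did not overlap, and the 2.83-fold difference (95% interval 1.50 to 5.33, FDR = 0.0766) missed the threshold. CEBPB was called in 4 of 9 other settings with all libraries (DESeq2, no filter on low counts, and RPKM with either pseudocount after a filter) and in 0 of 6 fits with 1 library left out. ATF3, a stress-induced repressor of the same family, had 8286, 1819 and 124 in QHMM and 2540, 1022 and 2098 in STH. This range within QHMM is wider than that of DDIT4, and its lowest library was again QHMM replicate 3. ATF3 differed by -0.85 on the log2 scale (SE 0.95, FDR = 0.675), and by 0.94 without QHMM replicate 1.

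Of 18 other target genes of ATF4 or DDIT3, 16 had a row and 11 were tested. CDKN1A alone was called by edgeR, higher in STH, and the list had a median log2 fold change of 0.67. Before adjustment, edgeR gave 6 of the 11 a p below 0.05, against 19.2% of all tested genes. Besides CDKN1A, these were TXNIP (1.095), NDRG1 (0.929) and BBC3 (1.482), higher in STH, and VEGFA (-1.172) and VLDLR (-0.696), lower. DESeq2 called 4 genes of this list, and the replicate block and the fit without STH replicate 1 called 2 each. CDKN1A encodes the cell cycle inhibitor p21 and is best known as a target of p53. It had 162, 125 and 47.7 normalized counts in QHMM and 362, 535 and 728 in STH, and rose by 2.28 on the log2 scale (SE 0.41, FDR = 0.0193). The call was lost without QHMM replicate 2 and on log2(RPKM + 1) of all genes above 0. Of the 5 genes of the list that were not tested, CHAC1 had 1.79, 1.17 and 0 normalized counts in QHMM and 4.13, 3.21 and 7.84 in STH. The values do not overlap but lie close to the limit of detection. The 0 in QHMM replicate 3 allows up to 3 reads by counting error alone. GDF15 was read in 1 library only, and FGF21 had no read in any, which allows up to 3 reads in each library by counting error. These 3 were picked out after the data had been viewed. Of 9 amino acid transporters of the amino acid response, 7 were tested and 0 called. SLC3A2, the heavy chain shared by several of these transporters, had 539, 622 and 497 normalized counts in QHMM and 701, 3934 and 1265 in STH, and the log2 fold change of 1.83 (SE 0.51, FDR = 0.0787) dropped to 0.82 without STH replicate 2. SLC3A2 was called with no filter on low counts and without STH replicate 1. SLC7A1, listed as CAT-1, was 2.22-fold higher in STH (95% interval 1.11 to 4.43) and was not called (FDR = 0.196).

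Of 20 other enzymes of serine, glycine and folate metabolism, 15 were tested, 1 was called and 4 had log2 fold changes above 0, with a median log2 fold change of -0.26. GCAT, which takes part in the breakdown of threonine to glycine, was the gene called. Normalized counts were 568, 577 and 509.6 for QHMM and 289, 215 and 285 for STH, and GCAT fell by 1.07 on the log2 scale (SE 0.21, FDR = 0.0252). The call was lost without QHMM replicate 1, 2 or 3 or STH replicate 2 and on RPKM values, while the log2 fold change stayed between -1.16 and -0.96 with any 1 library left out. SHMT1, the cytosolic counterpart of SHMT2, differed by 0.56 on the log2 scale (SE 0.28, FDR = 0.310), and MTHFD2L, the relative of MTHFD2, had -1.19 (SE 0.46, FDR = 0.186). PSPH, which catalyses the last step of serine synthesis, had -0.35 (SE 0.45, FDR = 0.720). SHMT1, MTHFD2L and PSPH were picked out after the data had been viewed.

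Of 8 genes for proline, glutamine and aspartate synthesis, all were tested and 1 was called. GLUL, the glutamine synthetase, listed as LOC101102999, had 3013, 2921 and 1995 normalized counts in QHMM and 8609, 17499 and 12783 in STH. It rose by 2.29 on the log2 scale (SE 0.32, FDR = 0.00684) and was called in every setting and with any 1 library left out. Another row of the file, LOC101120934, is also matched to GLUL, so how reads were divided between the copies is uncertain.

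In the endoplasmic reticulum, where unfolded proteins activate a branch of the same response, 17 of 18 genes were tested and 1 was called. The median log2 fold change was 0.10. HSPA5, the chaperone BiP, which is the standard marker of this stress, had 1677, 1259 and 989 normalized counts in QHMM and 1207, 1318 and 1242 in STH, a difference of -0.06 on the log2 scale (SE 0.24, FDR = 0.925); it was picked out after the data had been viewed. EDEM1, which directs misfolded glycoproteins to degradation, had 133, 124 and 147 normalized counts for QHMM and 317, 372 and 248 for STH, and rose by 1.21 on the log2 scale (SE 0.24, FDR = 0.0247). Its call was lost without QHMM replicate 1, 2 or 3 or STH replicate 2 and on RPKM values. Of 12 mitochondrial proteases and chaperones, 10 were tested and 0 called, with a median of 0.10. AFG3L2, a protease of the inner membrane, had -0.57 (SE 0.25, FDR = 0.255) and TRAP1, a chaperone, 0.46 (SE 0.24, FDR = 0.344).

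The list with the most calls among the 10 was that around DDIT4. It holds subunits, regulators and targets of mTORC1, and also TRIB1 and TRIB2. Of its 15 genes, 14 were tested and 3 were called, all higher in STH, with a median log2 fold change of 0.26. Over all tested genes, 1.62% were called higher in STH. Because this list was drawn up with earlier results of these data known, its place among the lists is no independent finding. SESN1, a sestrin that senses leucine and holds mTORC1 down, had 497, 586 and 789 normalized counts in QHMM and 3844, 6714 and 4414 in STH. It rose 7.99-fold (95% interval 5.02 to 12.7, FDR = 0.00231), ranked 6 by p among all tested genes, and was called in every setting and with any 1 library left out. SESN2, the sestrin that ATF4 induces, ranged from 2.03 to 17.9 normalized counts in QHMM and from 4.48 to 10.7 in STH, with overlapping breeds and a fold of 0.712 (95% interval 0.247 to 2.05, FDR = 0.749). EIF4EBP1, a repressor of translation that mTORC1 switches off and that ATF4 can induce, had 684, 977 and 552 normalized counts for QHMM and 1454, 1798 and 2209 for STH, and rose 2.47-fold (95% interval 1.63 to 3.73, FDR = 0.0306). CASTOR2, listed as LOC101112277 and a paralog of an arginine sensor, rose 2.22-fold (95% interval 1.48 to 3.33, FDR = 0.0438). EIF4EBP1 lost its call without QHMM replicate 1 or 3 or STH replicate 2 or 3, and CASTOR2 without any library other than STH replicate 1. DDIT4L, the paralog of DDIT4, had 579, 598 and 954 normalized counts in QHMM and 1731, 984 and 1806 in STH, without overlap. DDIT4L differed by 1.08 on the log2 scale (SE 0.30) and was not called (FDR = 0.0748). SESN2 and DDIT4L were picked out after the data had been viewed.

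**Figure D5:**
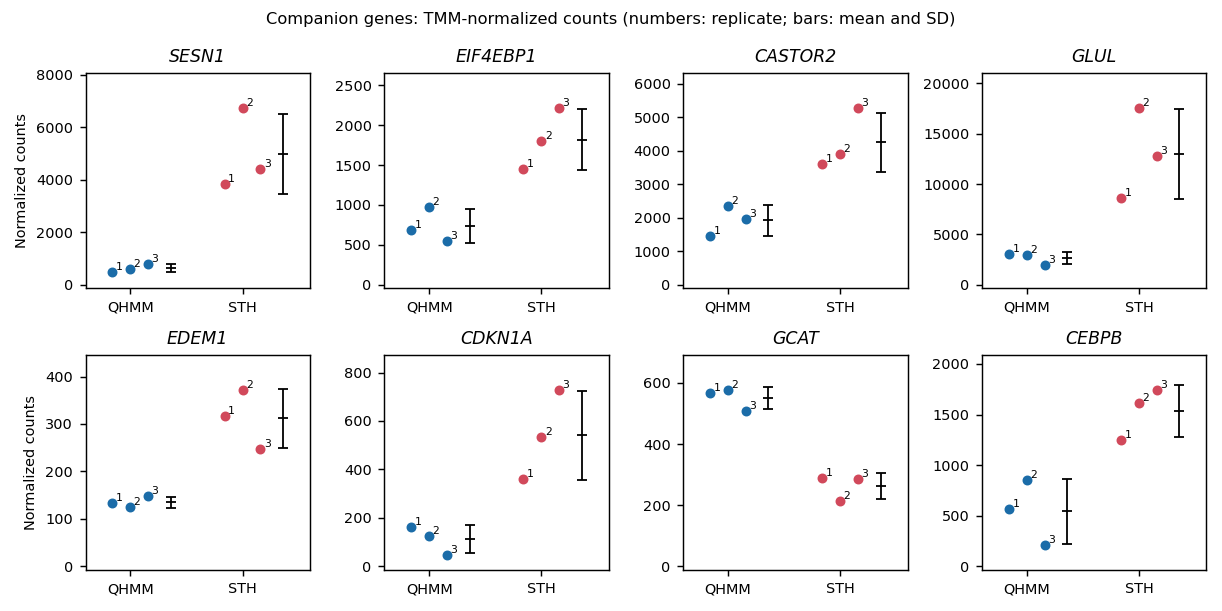
TMM-normalized counts of the 7 called companion genes and of CEBPB, which was not called, in the 6 libraries; points carry replicate numbers, and bars are the mean and SD of 3 libraries. The breeds do not overlap in any panel, and GCAT is the only gene that is lower in STH.

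Markers of other cell types also differed between the libraries. Of the 6 adipocyte markers, 4 (ADIPOQ, PLIN1, LEP and CIDEC) were called lower in STH, with a median log2 fold change of -2.25 over the 6. Their summed level was 84.9 to 397 RPKM in QHMM and 50.2 to 160 in STH, and QHMM replicate 1, the highest of these libraries, was also the highest for DDIT3, on RPKM and on normalized counts. Of the fibroblast, endothelial, and macrophage and leukocyte lists, 0 genes were called by edgeR, and their medians were -0.68, 0.10 and -0.55. COL1A1 and COL3A1 had the largest differences among fibroblast genes (-1.30 and -1.22), EMCN and VWF among endothelial genes (0.67 and 0.40), and AIF1 and CD3E among the blood cell genes (-0.80 and -0.75). COL1A1 and COL3A1 were called lower in STH by DESeq2, with no filter on low counts and with the replicate block. In the satellite cell list, CDH15 was called higher and MYOD1 lower, with a list median of -0.01. Of the muscle fibre markers, OMYHCS, the slow myosin heavy chain, was called lower (-1.34) by edgeR, and the other 6 tested were not. The lowest log2 fold change among them was -1.47. DESeq2, no filter on low counts, the replicate block and RPKM with either pseudocount after a filter each called 2 genes of this list. ADIPOQ kept its call with any 1 library left out. Without STH replicate 2 the calls of OMYHCS, PLIN1, LEP, CIDEC and CDH15 were lost, and without QHMM replicate 1 or 3 those of OMYHCS, LEP, CIDEC, CDH15 and MYOD1; QHMM replicate 2 (OMYHCS, CDH15, MYOD1), STH replicate 1 (CIDEC) and STH replicate 3 (LEP, CIDEC, CDH15, MYOD1) also ended calls. The part of these cell types in the members' values was not tested.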

How the data were processed

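The authors filtered Ion Proton reads, mapped them to the sheep genome (Oar 3.1) and kept unique mapped reads. The deposited counts are raw reads per gene; the deposited RPKM values, made by the authors, equal the counts divided by a gene's length and its library's total. The aligner, counter, annotation release and use of strand are not given in the sources used here. In the RPKM table, 25 rows whose gene names had been changed to dates were not joined. Counts were tested in R 4.3.3 with edgeR 4.0.16 (TMM, filterByExpr, glmQLFTest, breed as the only term; Benjamini-Hochberg adjustment over 12506 genes); SE and 95% intervals come from the F statistic. DESeq2 1.42.0, limma 3.58.1 on log2(RPKM + 1) or log2(RPKM + 0.1) and other settings were alternatives. The fits were tested on simulated counts. Log2 CPM for gene patterns used a prior count of 2. Plots used matplotlib 3.10.9.

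Members and lists were chosen with earlier results of these data known. Of 162 companion genes, 139 were matched by symbol, 9 by RefSeq gene number (assembly ARS-UI_Ramb_v3.0, names only), 6 by the only row with that best-match symbol, and 8 not at all. Named were the members, each list's called genes or else its 2 largest changes, and the 3 genes nearest to ATF4. EBSeq, the program of the study, was not installed. The promoter motif search that had been planned was not run, since no sequence was used here. Libraries are 1 per animal, and p-values weigh the breed difference against the variation between animals of the same breed. The intervals of fold changes come from edgeR's F statistic and include that variation. Both rest on these 6 animals. The floors of 3 counts on raw reads cover counting error only.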

Additional observations from a re-analysis of the deposited data

How the results depend on the processing

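Among 12506 genes, 432 were called, against 973 with DESeq2, 806 with no filter on low counts, 78 by limma-trend on log2(RPKM + 1) of all genes above 0, and 131 to 535 with 1 library left out. In the 3 limma-trend fits on RPKM (pseudocounts 1 and 0.1 after a filter, and 1 on all genes above 0), 61.3%, 61.9% and 69.2% of the calls were higher in STH, against 47.0% on counts, and the median log2 fold change of all genes was 0.12, 0.14 and 0.04. No member was called in any setting that was run, by edgeR, DESeq2 or limma. DDIT4, ASNS, PSAT1 and SHMT2 were above 0 in every setting that tested them, and with 1 library left out ranged from 0.50 to 2.01, 0.15 to 0.80, 0.09 to 1.24 and 0.53 to 0.72. ATF4 (-0.003 to 0.61), ATF5 (-0.13 to 0.26), DDIT3 (-0.59 to 0.15) and PHGDH (-0.30 to 0.19) changed sign there. PHGDH had 0.057, 0.091 and 0.057 in these 3 fits, below the median of all genes in the fits after a filter. With the replicate number as a block, 457 genes and 0 members were called, and the log2 fold change of DDIT4 was 1.61 and that of SHMT2 0.62. Same-numbered libraries deviated from their breed means with correlations of 0.226, -0.038 and -0.13, and differently numbered ones with -0.263 to 0.287. With so few libraries per breed, these values cannot show whether the number stands for a pairing. TRIB3, with 22 reads over the 6 libraries, did not pass the filters on low values. With no filter on low counts its log2 fold change was 1.08 (SE 1.06, FDR = 0.686). On log2(RPKM + 1) of all genes above 0 it was 0.24 (FDR = 0.595). Among the tested members the SE followed the read number only in part. DDIT4, with 15406 raw reads, had the largest SE (0.66). PSAT1 (0.57) and ASNS (0.51), with 153 and 111 reads, came next, and SHMT2, with 3930 reads, had the smallest (0.21).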

Other observations

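In normalized counts, STH replicate 1 had the lowest ATF4 of the 6 libraries, 8848, and the highest ASNS (28.1), PSAT1 (54.5) and DDIT4 (4007). On RPKM, ATF4 was lowest in QHMM replicate 1 (669), next to STH replicate 1 (681). STH replicate 3 had the highest ATF4, 22688, and the highest TRIB3 (8.96) in normalized counts, and was second highest for ASNS (22.4), DDIT4 (3840.2) and SHMT2 (847) and the third highest for PSAT1 (19.0). STH replicate 2 had the highest SHMT2 (882) and the second highest ATF4 (16462). No relation between ATF4 and these genes was tested.

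In STH replicate 2, several genes of the endoplasmic reticulum stood above the other libraries: HERPUD1 had 4788 normalized counts there and 1151 to 1907 in the other 5, and DNAJB9 had 261 against 43.3 to 115. SLC3A2 was highest in the same library. HSPA5, at 1318, did not stand apart there. These genes were picked out after the data had been viewed.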
